A study of Mus musculus with 102 samples.

Results

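Homeostatic microglia genes are the genes by which microglia of the healthy brain are told from other macrophages. The set described here is 9 of the 51810 gene rows of the brain table, taken by gene symbol: Csf1r, Cx3cr1, P2ry12, Siglech, Sall1, Tmem119, Fcrls, Olfml3 and Slc2a5. All 9 symbols were found, 8 of them had reads and passed the filter on low values, and P2ry12 was listed at 0 in every library.

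The series sequenced RNA of whole organs, brain and spleen, over the life of the mouse, and of spleen from a second experiment that is not used here. The ageing animals were male, wild type mice whose titles name the strain BL6J, the common inbred black mouse, and the labels give no treatment for them. Libraries of 45 brains were deposited, 7 from mice of 3 months, 9 of 5 months, 8 of 8 months, 9 of 14 months, 7 of 20 months and 5 of 26 months, and the spleens carry the same mouse numbers in their titles. The labels say only brain, and name no region and no cell sort, so each value is a level in a whole tissue extract.

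Microglia are the resident macrophages of the brain. They depend on CSF1 receptor signalling for survival and on TGF-beta for their tissue identity, and the transcription factor SALL1 is part of that identity programme. When microglia turn to an activated state, as around amyloid plaques or damaged myelin, they are known to lower several homeostatic genes, P2ry12 and Tmem119 among them, and to raise genes such as Itgax, Clec7a and Gpnmb.

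Brain libraries held between 4072076 and 13655235 reads in genes. The values are normalized read counts, which are reads of a gene divided by 1 size factor per library. Among brains of 5 months, replicates 1 and 6 differed by less than the sampling noise and were counted as 1 sample, and so were replicates 4 and 7 of 8 months. The titles name different mice for the libraries of each pair, and whether a pair is 1 library deposited under both titles was not settled. Their spleens were kept as separate samples. This leaves 43 brain samples, 8 at 5 months and 7 at 8 months. Snap25, a synaptic protein of neurons, was read at 26857 ± 5025 (SD, n = 7) at 3 months and 25754 ± 3703 (n = 5) at 26 months, while the astrocyte marker Gfap was listed at 0 in all libraries. P-values measure the spread between these samples, part of which may be technical. In a bulk extract, fewer microglia and less RNA per microglial cell cannot be told apart.

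For the 8 members with reads, no difference between ages passed the test used after adjustment over all tested genes. At 26 against 3 months, 0 of the 8 passed the test (limma, adjusted p under 0.05 over all 15546 tested genes), where 0.663% of all tested genes passed, 0.572% higher and 0.0901% lower. An unadjusted p under 0.05 was reached by 1 member, Olfml3, and edgeR and DESeq2 on the recovered reads also called 0 of 8. The fitted changes ran from -0.02 to 0.53 on the log2 scale with a median of 0.12, beside a median of -0.01 over all tested genes, and 7 of the 8 were above 0. In none of the 8 were the samples of 26 months separated from those of 3 months, while the groups did not overlap for 1.05% of all tested genes.

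The receptors come first. Csf1r encodes the receptor for the growth factors CSF1 and IL-34, on which microglia depend. At 3 months its lowest sample stood at 157, the median at 196 and the highest at 272, and the 5 samples of 26 months stood at 227, 269.4, 119, 303 and 222. The oldest group thus held both a sample below and a sample above all young ones. Its means, from the youngest age to the oldest, were 208 ± 45.6 (SD, n = 7), 196.5 ± 48.9 (n = 8), 209 ± 49.7 (n = 7), 228 ± 47.8 (n = 9), 221 ± 36.7 (n = 7) and 228 ± 69.5 (n = 5). Its log2 change at 26 months was 0.10 (SE 0.19; adjusted p = 0.906 in limma), with a 95% interval from -0.29 to 0.48.

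Cx3cr1 encodes the receptor for fractalkine, a signal from neurons. Its samples ran from 239 over a median of 316 to 414 at 3 months, and stood at 381, 368, 333, 363 and 322 at 26 months. All 5 old values lay inside the young range, and the old group was the tightest of the 6. The means were 326 ± 65.4 (n = 7), 299 ± 41.8 (n = 8), 314 ± 43.1 (n = 7), 309.7 ± 39.1 (n = 9), 314 ± 36.8 (n = 7) and 353 ± 24.7 (n = 5) from the youngest to the oldest age. The log2 change at 26 months was 0.14 (SE 0.11; adjusted p = 0.734 in limma), with an interval from -0.09 to 0.37, so that a fall of Cx3cr1 by more than 6.23% lies outside the interval.

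Siglech encodes a sialic acid binding lectin that is a microglial marker in brain and a marker of plasmacytoid dendritic cells in lymphoid organs. Its 3-month samples ran from 82.1 over 91.5 to 119, and the 26-month samples stood at 99.2, 99.97, 113, 115 and 82.0. The groups overlapped almost fully, and the means only moved between 94.1 ± 11.2 (n = 7) at 20 months and 102 ± 20.0 (n = 8) at 5 months. The log2 change at 26 months was 0.07 (SE 0.15; 95% interval -0.23 to 0.38), at an adjusted p of 0.912 in limma.

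P2ry12, the ADP receptor by which microglia steer their processes toward injury, was listed at 0 in all 45 brain and all 45 spleen libraries. In GENCODE M21 on GRCm38, P2ry12 lies on the minus strand of chromosome 3 from 59216272 to 59262871, wholly inside Med12l, which runs on the plus strand from 59005825 to 59318682. Med12l, a subunit of the Mediator module of transcription, was read at a mean of 418 over the 43 brain samples. Its neighbour P2ry13, a related ADP receptor that also lies inside Med12l, was listed at 0 as well. So was Gpr34, a lysophosphatidylserine receptor of microglia, which lies inside Cask on the X chromosome. The same holds widely in the brain table: of 1187 protein-coding genes that lie wholly inside another gene, 1082 (91.2%) were listed at 0 in all brain libraries. The share was 13.7% (1661 of 12094) among protein-coding genes with no overlap and 3.39% (287 of 8468) among those with a partial one. Why P2ry12 is listed at 0 was not tested, and the rule for counting reads in such genes is not given in the sources used here. From a row of 0 in every library, neither a level of P2ry12 nor a change with age can be read.

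The transcription factor Sall1, which holds microglia in their tissue identity, was read at 238 to 402 at 3 months with a median of 284. At 26 months the samples stood at 238, 312, 355, 343 and 347. None of the old samples left the young range. Sall1 means were 303 ± 60.5 (n = 7), 335 ± 108 (n = 8), 298 ± 52.0 (n = 7), 313 ± 55.0 (n = 9), 317 ± 54.1 (n = 7) and 319 ± 48.0 (n = 5) in order of age. The widest group was that of 5 months, in which 2 samples stood above 500 and the other 6 below 320. The log2 change at 26 months was 0.08 (SE 0.16; 95% interval -0.24 to 0.40), at an adjusted p of 0.903 in limma.

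Tmem119 encodes a transmembrane protein of unsettled function that is widely used to tell microglia from blood-derived macrophages. It ran from 33.0 over 76.4 to 107 at 3 months, and stood at 68.8, 75.6, 109, 99.99 and 68.4 at 26 months. One of the 5 old samples, that of replicate 3, lay just above the young range. Means of Tmem119 were 73.9 ± 25.5 (n = 7), 82.4 ± 24.7 (n = 8), 73.4 ± 26.7 (n = 7), 71.2 ± 27.7 (n = 9), 84.6 ± 17.5 (n = 7) and 84.4 ± 18.9 (n = 5) from the youngest to the oldest age. Its log2 change was 0.25 (SE 0.26; adjusted p = 0.797 in limma), with an interval from -0.26 to 0.76. Without replicate 1 of 3 months, its lowest sample, the change of Tmem119 was 0.07 (adjusted p = 0.959 in limma). Over the 43 samples, deviations of Tmem119 from its age means went with the number of reads of a library. Pearson's r was 0.49 (permutation p = 0.00158, adjusted p = 0.0126 over 8 members) and Spearman's rho 0.43 (permutation p = 0.00610, adjusted p = 0.0488). Without the 2 samples farthest from the median in the number of reads, r was 0.49. The part of depth in the level of Tmem119 was not tested further.

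**Figure D1:**
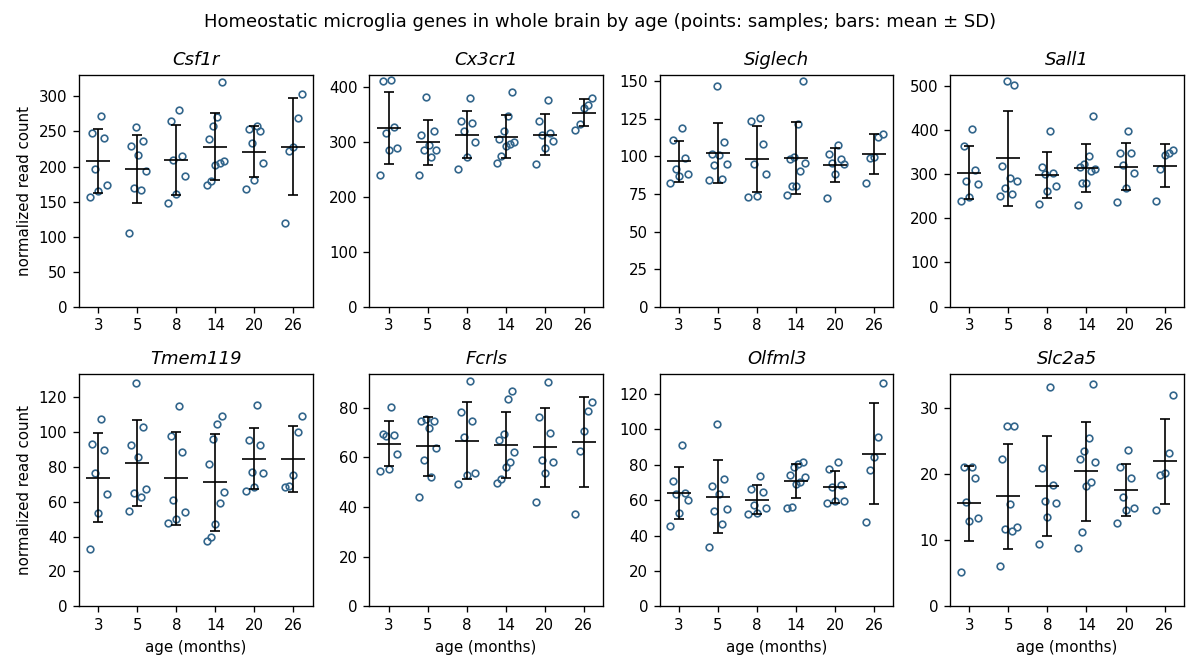
Normalized read count (vertical axes, from 0) of the 8 members with reads against age in months; each point is 1 brain sample and the bars give the mean ± SD. In every panel the samples of 26 months overlap those of 3 months, and Olfml3 at 26 months spans from 47.7 to 126.

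Fcrls, an Fc receptor-like scavenger receptor of microglia, ran from 54.4 over 68.3 to 80.2 at 3 months and stood at 62.4, 70.7, 37.0, 78.5 and 82.0 at 26 months. The old group was spread on both sides of the young one. Its 6 means lay between 64.0 ± 15.9 (n = 7) at 20 months and 66.7 ± 15.5 (n = 7) at 8 months. The log2 change at 26 months was -0.02 (SE 0.18; adjusted p = 0.979 in limma), with an interval from -0.39 to 0.34.

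Olfml3 encodes a secreted glycoprotein of the olfactomedin family. It showed the change nearest to the threshold. Its samples ran from 45.2 over 63.3 to 91.0 at 3 months, and stood at 126, 84.1, 47.7, 95.8 and 77.2 at 26 months. All old samples but 1 were above the young median, 2 of them above all young samples, and replicate 3 was near the young minimum. Means of Olfml3 were 63.9 ± 14.6 (n = 7), 62.0 ± 20.6 (n = 8), 60.3 ± 8.06 (n = 7), 71.0 ± 9.64 (n = 9), 67.5 ± 9.21 (n = 7) and 86.3 ± 28.6 (n = 5) in order of age. The log2 change at 26 months was 0.39 (SE 0.19, 95% interval 0.02 to 0.76), with an unadjusted p of 0.0413 and a limma adjusted p of 0.468. A straight line over the 6 ages gave a slope of 0.0166 log2 units per month (SE 0.0062), with an unadjusted p of 0.00990 and a limma adjusted p of 0.180.

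Slc2a5 encodes the fructose transporter GLUT5, which in brain is known from microglia. It was the lowest member, read with 3 to 57 reads per sample. Values ran from 5.21 over 15.8 to 21.1 at 3 months, and stood at 32.0, 23.2, 14.6, 19.9 and 20.1 at 26 months. The groups overlapped, and the sample at 5.21 rests on 3 reads. Means were 15.6 ± 5.71 (n = 7), 16.7 ± 7.95 (n = 8), 18.2 ± 7.57 (n = 7), 20.4 ± 7.44 (n = 9), 17.6 ± 3.95 (n = 7) and 21.96 ± 6.41 (n = 5) in order of age. The fit gave Slc2a5 the widest interval of the set and a log2 change of 0.53 (SE 0.31; 95% interval -0.10 to 1.16), at an adjusted p of 0.590 in limma. Without replicate 1 of 3 months, the sample with 3 reads, the change of Slc2a5 was 0.31 (adjusted p = 0.809 in limma), level with that of Olfml3 without the same sample (0.31).

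The promoters of Fcrls, Olfml3 and Slc2a5 are shown because these members varied together from sample to sample in 2 of their 3 pairings, as described further on. The sequences are RefSeq windows on GRCm38.p6 of 300 bases, 250 before and 50 after the annotated start, printed 5′ to 3′ on the strand of the gene. They cover chr3:87263475-87263774 (minus strand) for Fcrls, chr3:103737952-103738251 (minus strand) for Olfml3 and chr4:150119094-150119393 (plus strand) for Slc2a5. Capitals mark GAGGAA, a core to which PU.1, the macrophage lineage factor, is known to bind.
Fcrls: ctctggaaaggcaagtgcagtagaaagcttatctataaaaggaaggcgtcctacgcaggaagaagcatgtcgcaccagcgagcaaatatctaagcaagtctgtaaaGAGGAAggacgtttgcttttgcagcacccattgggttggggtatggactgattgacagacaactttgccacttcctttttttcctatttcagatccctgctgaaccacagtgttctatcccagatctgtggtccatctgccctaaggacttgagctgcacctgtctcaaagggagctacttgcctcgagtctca
Olfml3: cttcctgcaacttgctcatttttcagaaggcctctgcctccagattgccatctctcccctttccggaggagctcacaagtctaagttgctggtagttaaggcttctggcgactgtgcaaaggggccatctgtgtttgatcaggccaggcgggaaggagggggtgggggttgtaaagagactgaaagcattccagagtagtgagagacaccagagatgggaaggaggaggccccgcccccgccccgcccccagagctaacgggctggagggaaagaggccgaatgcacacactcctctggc
Slc2a5: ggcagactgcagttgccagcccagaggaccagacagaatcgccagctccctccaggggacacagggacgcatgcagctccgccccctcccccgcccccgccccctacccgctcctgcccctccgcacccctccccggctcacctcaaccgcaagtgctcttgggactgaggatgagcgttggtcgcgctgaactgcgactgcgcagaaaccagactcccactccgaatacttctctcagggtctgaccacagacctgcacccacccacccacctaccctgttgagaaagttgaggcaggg
GAGGAA was searched on both strands and no other motif was searched. It was found in 28.3% of 32851 promoter windows of the same length, and in 2 of the 7 members with a window, Fcrls at base 107 of the window and Siglech at base 247. A match is a description of letters and says nothing of binding in these samples.

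Reference positions of the other members are in GENCODE M21 on GRCm38. Cx3cr1 lies on chromosome 9 from 119901616 to 120069879, minus strand, and Siglech on chromosome 7 from 55768178 to 55778925, plus strand. Sall1 lies on chromosome 8 from 89027235 to 89044162 and Tmem119 on chromosome 5 from 113793729 to 113800516, both minus strand. Csf1r lies on chromosome 18. Its gene span overlaps that of Hmgxb3, which was read at a mean of 167, and of a microRNA listed at 0. The annotated span of Cx3cr1 is long, 168264 bases, and overlaps 9 other genes, of which 7 were listed at 0, among them Csrnp1, Gorasp1, Ttc21a and Xirp1. The rule for reads in overlapping genes is not given in the sources used here, and its part in the levels of Cx3cr1 and Csf1r was not tested. Tmem119, Sall1, Siglech, Fcrls, Olfml3 and Slc2a5 overlap no other annotated gene.

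Per kilobase of annotated exon, the normalized count over the 43 samples was highest for Cx3cr1 at 70.3 ± 9.82 (SD), followed by Sall1 at 59.7 ± 12.3, Csf1r at 37.2 ± 8.27, Tmem119 at 33.6 ± 10.2, Siglech at 29.2 ± 5.22, Fcrls at 27.9 ± 5.597, Olfml3 at 10.97 ± 2.71 and Slc2a5 at 5.37 ± 1.96. Cx3cr1 was above Sall1 in 39 of 43 samples, and Sall1 above Csf1r in 41. From Csf1r down to Fcrls, the order of neighbours varied from sample to sample. Csf1r stood above Tmem119 in 29, Tmem119 above Siglech in 30 and Siglech above Fcrls in 26 of the 43 samples. These orders were not tested. Fcrls was above Olfml3, and Olfml3 above Slc2a5, in all 43.

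The other ages gave the same counts of calls. At 20 against 3 months, 0 of 8 members passed (limma; 0 with an unadjusted p under 0.05), where 0.174% of all tested genes passed (0.161% higher, 0.0129% lower) and 0.334% had groups that did not overlap. The log2 changes lay between -0.06 and 0.26. At 14, 8 and 5 against 3 months, 0 of 8 passed in limma, 0 had an unadjusted p under 0.05, and 0% of all tested genes passed. Groups did not overlap for 0.0129%, 0.0257% and 0.00643% of all tested genes in these 3 comparisons, and overlapped for each of the 8 members. At 26 against 14 months, 0 of 8 passed (limma; 0 with an unadjusted p under 0.05), where 0.167% of all tested genes passed and 0.296% had groups that did not overlap. The changes lay between -0.04 and 0.32. These contrasts share their 3-month or 26-month samples and are not separate tests of the same thing. Tested jointly over all ages by F, limma called 0 of 8 (0 with an unadjusted p under 0.05; 0.482% of all tested genes), with adjusted p-values from 0.954 to 0.99981. The slope with age, in which all 43 samples enter 1 line, called 0 of 8 (1 with an unadjusted p under 0.05, Olfml3), where 1.58% of all tested genes passed, 1.3% higher and 0.283% lower. edgeR and DESeq2 called 0 of 8 in each of these comparisons too.

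Genes of other microglial lists did pass in the same samples. Of 18 genes that mark microglia in any state, 5 rose at 26 against 3 months and 18 of 18 changes were above 0, with a median log2 change of 0.51. Ptprc, the CD45 phosphatase of white blood cells and microglia, rose by 1.22 on the log2 scale, with means of 55.7 ± 9.76 (n = 7) and 132 ± 32.9 (n = 5) (SE 0.15; adjusted p = 9.64e-07 in limma). The adaptor Fyb rose by 1.15 (SE 0.23; adjusted p = 0.00420 in limma), the complement subunit C1qb by 0.71 (SE 0.16; adjusted p = 0.0137 in limma) and the lysosomal protease Ctss by 0.73 (SE 0.17; adjusted p = 0.0161 in limma). Of 25 listed genes of the activated state 19 were tested, of which 7 rose and 0 fell, with a median of 0.48. Clec7a, a receptor for beta-glucan, rose from 2.53 ± 1.88 to 34.5 ± 22.1, and the integrin Itgax from 1.41 ± 1.52 to 25.2 ± 11.9 (limma adjusted p = 3.62e-05 and 3.91e-05). The filter needs a value of at least 10 in 5 libraries, and the oldest group has 5 samples. A gene as low in young brains as Clec7a or Itgax can thus enter the test through its old samples alone. The filter may therefore raise the share of rises among the tested genes of such a list. Gpnmb rose by 1.45 (SE 0.18; adjusted p = 1.23e-06 in limma) and Lyz2, the macrophage lysozyme, by 1.92 (SE 0.32; adjusted p = 0.000264 in limma). Along the slope with age, 8 of the 18 and 9 of the 19 rose. That the homeostatic members changed less than these lists was not tested as a difference between lists, and some genes, such as Csf1 and Tyrobp, stand in 2 of the lists used here.

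**Figure D2:**
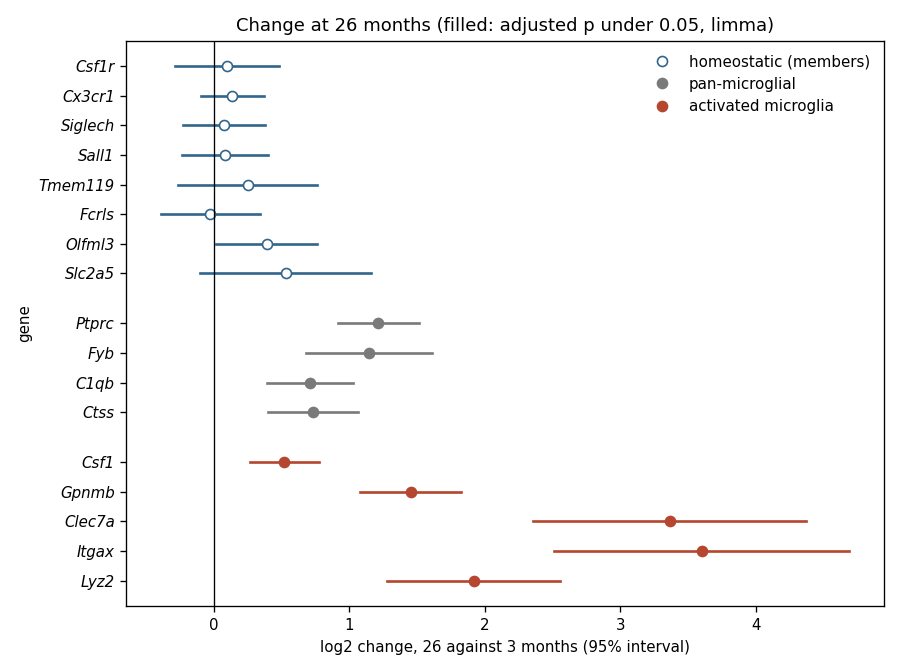
Log2 change at 26 against 3 months with its 95% interval (horizontal axis) for the 8 members and for named genes of the pan-microglial and activated lists; filled points passed at adjusted p under 0.05 in limma. The members lie between -0.02 and 0.53 with no filled point, Ptprc lies at 1.22 and Itgax at 3.60. Apart from Csf1, the named genes were picked by smallest p at 26 against 3 months, and Clec7a and Itgax can pass the filter through old samples alone.

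The mean of the members' log2 values was taken in each sample. From young to old it stood at 6.62 ± 0.19 (SD, n = 7), 6.63 ± 0.14 (n = 8), 6.63 ± 0.12 (n = 7), 6.69 ± 0.17 (n = 9), 6.70 ± 0.14 (n = 7) and 6.81 ± 0.18 (n = 5). The mean of the pan-microglial list went from 5.89 ± 0.14 at 3 months to 6.15 ± 0.12 at 20 and 6.47 ± 0.30 at 26 months, and that of the activated list from 6.30 ± 0.12 to 6.82 ± 0.16 and 7.21 ± 0.29. These means are over genes that passed the filter, which Clec7a and Itgax can pass through old samples alone. The filter may therefore raise the activated mean at 26 months. Given as sums of normalized counts, the members held 928 to 1324 at 3 months and 1128 to 1418 at 26 months. The pan-microglial list held 2010 to 3264 and 3154 to 4174. The activated list held 9495 to 12229 and 8946 to 12842, so its sums overlapped although its mean log2 value rose.

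**Figure D3:**
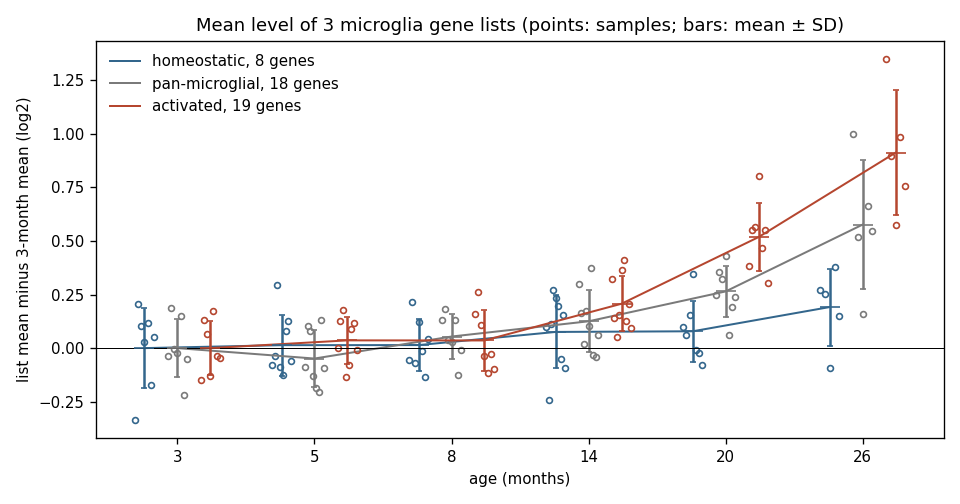
Mean log2 level of 3 lists per sample minus the list's 3-month mean (vertical axis) against age in months; points are samples, bars the mean ± SD and lines join the means. All 3 means lie above 0 at 26 months, and the log2 levels behind them went from 6.62 to 6.81 for the members, from 5.89 to 6.47 for the pan-microglial and from 6.30 to 7.21 for the activated list. Only genes that passed the filter enter, which may raise the activated mean at 26 months.

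With the mean of the pan-microglial list as a covariate 0 of 8 members passed at 26 against 3 months. The fitted log2 changes with the covariate were below 0 for Csf1r at -0.51 (limma adjusted p = 0.194), Siglech at -0.35 (limma adjusted p = 0.286), Fcrls at -0.34 (limma adjusted p = 0.425), Cx3cr1 at -0.22, Olfml3 at -0.17 and Slc2a5 at -0.14, and stood above 0 for Sall1 at 0.21 and Tmem119 at 0.55. The same fit called 1255 of the 15546 genes, 524 higher and 731 lower, against 103 without the covariate. The covariate itself went from 5.89 at 3 months to 6.47 at 26 months, so this fit does not fully separate it from age. The signs below 0 cannot be read as a fall per microglial cell.

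A further 20 genes often listed with the homeostatic state were in the table, of which 4 were listed at 0 (P2ry13, Gpr34, Ecscr and Vsir) and 14 passed the filter. Of these 14, 0 passed the test at 26 against 3 months and 0 along the slope (limma), with 11 changes above 0 and a median log2 change of 0.07. Summed over the list, normalized counts at 3 months were 20480 to 43636, beside 2010 to 3264 for the pan-microglial list. The part of cells other than microglia in these counts was not tested, so the count of 0 holds for whole brain only. Entpd1, the CD39 enzyme that breaks down extracellular ATP, stood at 126 ± 27.6 (n = 7) at 3 and 142 ± 7.64 (n = 5) at 26 months, a log2 change of 0.20 (SE 0.13, 95% interval -0.06 to 0.45). Golm1, a Golgi membrane protein, had a log2 change of 0.21 (SE 0.13, 95% interval -0.06 to 0.48).

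Ligands and partners of the members were measured in the same samples. Of 12 genes of the CSF1 receptor pathway, Csf1r included, 1 rose at 26 months and the median log2 change was 0.28. The gene that rose is Csf1, one of the 2 ligands, with a mean of 161 ± 21.0 (n = 7) in the young and 232 ± 35.6 (n = 5) in the oldest group and a log2 change of 0.52 (SE 0.13; adjusted p = 0.0284 in limma). Il34, the other ligand, stood at 129.5 ± 18.5 and 126 ± 22.3, a log2 change of -0.05 (SE 0.11; 95% interval -0.28 to 0.18), at an adjusted p of 0.926 in limma. Along the slope with age Csf1, the adaptor Tyrobp and the cytokine receptor chain Csf2rb rose (3 of 12).

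For Cx3cr1, the ligand fractalkine (Cx3cl1), made mostly by neurons, fell along the slope with age by 0.0110 log2 units per month (SE 0.00265; adjusted p = 0.0139 in limma). Its samples ran from 2801 over 3076 to 3330 at 3 months and from 2300.4 over 2526 to 2700.4 at 26 months, with no overlap. At 26 against 3 months its log2 change of -0.29 (SE 0.08) missed the threshold with a limma adjusted p of 0.0567. Among the 10 tested fractalkine and purinergic partners, 0 passed at 26 months (median 0.16) and 1 along the slope, Cx3cl1. The neuron list had 0 of 9 called at 26 months (limma), with a median log2 change of -0.14.

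The TGF-beta list had 0 of 15 called at 26 against 3 months (limma; median 0.24). Tgfbr2, a receptor subunit, rose along the slope by 0.0171 log2 units per month (adjusted p = 0.0233 in limma). Its young mean was 174 ± 40.5 (n = 7) and its oldest 235 ± 11.7 (n = 5), with no overlap. The ligand Tgfb1 had a log2 change of 0.39 (SE 0.23, 95% interval -0.07 to 0.84), and Nrros, which holds latent TGF-beta on microglia, one of 0.24 (SE 0.24, 95% interval -0.24 to 0.73). Of 14 tested microglial transcription factors, Sall1 included, 0 passed at 26 months (limma; median 0.12) and 1 rose along the slope, Irf8, from 37.4 ± 6.14 at 3 to 60.4 ± 15.7 at 26 months (slope adjusted p = 0.0192 in limma).

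Markers of other cells that the tissue could hold gave no call at 26 against 3 months in limma: 0 of 5 for border-associated macrophages (median 0.27), 0 of 1 for monocytes and neutrophils (0.82), 0 of 3 for lymphocytes and plasmacytoid dendritic cells (0.51), 0 of 3 for erythroid cells (0.40), 0 of 7 for astrocytes (-0.01), 0 of 8 for oligodendrocytes (0.18) and 0 of 9 for endothelium and pericytes (0.12). Many of these markers were too low to be tested. Those tested were 5 of 11 for border-associated macrophages, 1 of 13 for monocytes and neutrophils and 3 of 14 for lymphocytes and plasmacytoid dendritic cells. For these lists a count of 0 says little of a change. Summed over each list, border-associated macrophage markers held 94.9 to 172 normalized counts at 3 months and 131 to 262.1 at 26 months, monocyte and neutrophil markers 12.1 to 29.5 and 24.4 to 77.2, and the lymphocyte and plasmacytoid list 22.6 to 43.1 and 35.4 to 64.0. Their part in the levels of Csf1r, Cx3cr1 and Siglech, which such cells can also express, was not tested.

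From sample to sample the 8 members did not move as 1 block. Deviations from the age means were correlated over 43 samples in 28 pairs, with permutations within ages. Pearson's r ran from -0.50 to 0.59 with a median of 0.01, and 15 of the 28 were above 0. By adjusted p over the 28 pairs, 6 were positive and 2 negative by Pearson's r, and 5 and 2 by Spearman's rho as well. Olfml3 went with Slc2a5 (r = 0.59, permutation p = 9.00e-05, adjusted p = 0.00252; rho = 0.63, permutation p = 5.00e-05, adjusted p = 0.00140). Without the 2 samples farthest from the median of Olfml3, r for this pair was 0.66. In the pairs below, the 2 samples left out are likewise those farthest in 1 of the genes. That gene is Tmem119 in its pairs with Sall1 and Csf1r, and Fcrls in its pair with Olfml3. It is Csf1r in its other pairs. Olfml3 also went with Csf1r (r = 0.58, permutation p = 0.000980, adjusted p = 0.00915, and rho = 0.49, permutation p = 0.00244, adjusted p = 0.0162), and r was 0.36 without 2 samples. Tmem119 went with Sall1 (r = 0.56, permutation p = 0.000180, adjusted p = 0.00252; rho = 0.59, permutation p = 1.00e-04, adjusted p = 0.00140; r = 0.59 without 2 samples).

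The Fcrls and Olfml3 pair followed (r = 0.48, permutation p = 0.00349, adjusted p = 0.0195; rho = 0.47, permutation p = 0.00290, adjusted p = 0.0162; r = 0.36 without 2 samples), then Csf1r with Slc2a5 (r = 0.43, permutation p = 0.00630, adjusted p = 0.0244; rho = 0.48, permutation p = 0.00271, adjusted p = 0.0162; r = 0.47). For Csf1r and Fcrls, r was 0.46 (permutation p = 0.00698, adjusted p = 0.0244), but rho was 0.36 (permutation p = 0.0254, adjusted p = 0.0891). This relation passed by r and not by rho, and r was 0.25 without 2 samples. Csf1r ran against Sall1 (r = -0.50, permutation p = 0.00179, adjusted p = 0.0125; rho = -0.44, permutation p = 0.00591, adjusted p = 0.0276; r = -0.41 without 2 samples) and against Tmem119 (r = -0.44, permutation p = 0.00441, adjusted p = 0.0206; rho = -0.41, permutation p = 0.0105, adjusted p = 0.0421; r = -0.45). Csf1r thus varied with Olfml3 and Slc2a5 and against Tmem119 and Sall1. Library depth was not removed from these pairs. With the number of reads, Pearson's r was 0.49 for Tmem119, 0.36 for Sall1 and -0.16 for Csf1r (permutation test, adjusted p = 0.0126, 0.108 and 0.581). It was 0.12 for Olfml3, -0.08 for Slc2a5 and -0.35 for Siglech. The part of depth in the pairs was not tested.

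**Figure D4:**
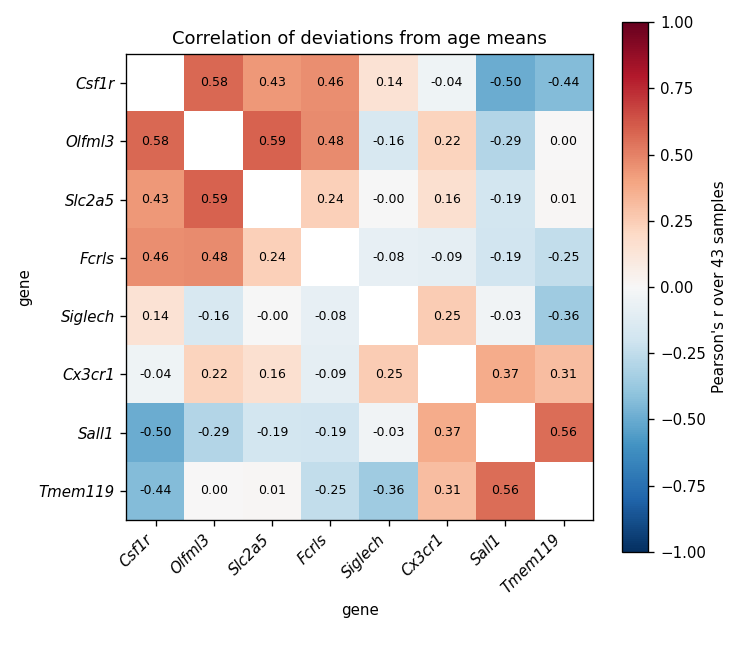
Pearson's r of the deviations from age means over 43 brain samples for each pair of members (gene by gene, colour scale from -1 to 1). Csf1r, Olfml3, Slc2a5 and Fcrls form positive pairs of up to 0.59, Tmem119 with Sall1 stands at 0.56, and Csf1r with Sall1 at -0.50.

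The pairs above include replicate 3 of 26 months, so its values are no separate support for them. Among the other samples of that age, Csf1r and Tmem119 were both highest in replicate 4 (303 and 99.99). Replicate 3 had the lowest values of the 5 for Csf1r (119), Fcrls (37.0), Olfml3 (47.7) and Slc2a5 (14.6), and the highest for Tmem119 (109) and Sall1 (355). Its 7746172 reads are the median of its group. Without it the log2 change at 26 against 3 months was 0.31 for Csf1r, 0.17 for Fcrls and 0.58 for Olfml3, and the slope of Olfml3 had its lowest adjusted p of any alternative (limma, 0.0672). No member passed without it.

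Likeness to the members was taken as Pearson's r over 43 samples after removal of the age means. The 10 genes nearest to the mean of the 8 members were Ptges2 (r = 0.70), Cnih2 (r = 0.66), Zdhhc7, Eif3s6-ps1, Guk1, Emc10, Rps15, Pcsk1n, Syt5 and Napa (r = 0.64), and 0 of the 10 stand in a microglial list. The nearest gene of a microglial list was C1qb at rank 16 (r = 0.63). Csf1r was nearest to Ctnnb1 (r = 0.92), Sall1 to Cpne4 (r = 0.86), Tmem119 to Mt2 (r = 0.83), Cx3cr1 to Lrrn1 (r = 0.79) and Siglech to Selenop (r = 0.78). Olfml3 had Cd68, a lysosomal protein of macrophages, as its second (r = 0.68). These are descriptions over samples that share library depth and tissue composition.

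In spleen, which has its own table and scaling, Csf1r, Cx3cr1, Siglech and Olfml3 were read well, and levels are not compared with brain. Sall1 and Fcrls were under the filter, with medians of 1.28 and 1.10 over 45 samples, and Tmem119 and Slc2a5 passed it at medians of 2.71 and 2.64. Of the 6 tested members, 0 passed at 26 against 3 months (limma; 1 with an unadjusted p under 0.05), where 0.369% of 16243 tested genes passed (0.203% higher, 0.166% lower) and 0.449% had groups that did not overlap. For any difference among the 6 ages 1 of 6 passed, where 14.6% of the tested genes did, so the count is near the share over all tested genes.

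The member that passed is Siglech, which changed among the ages (F test in limma, adjusted p = 0.0125). From young to old, spleen Siglech averaged 763 ± 548 (SD, n = 7), 603 ± 195 (n = 9), 608 ± 254 (n = 8), 431.5 ± 318 (n = 9), 266 ± 73.1 (n = 7) and 282 ± 201 (n = 5). At 3 months samples ran from 189.6 over 626 to 1851, and at 26 months they stood at 54.5, 227, 459, 522 and 147. At 26 months 3 of the 5 samples lay inside the young range. The log2 change of -1.53 (SE 0.44, 95% interval -2.40 to -0.65) missed the threshold in limma (adjusted p = 0.0779) and edgeR (adjusted p = 0.0530) and passed it in DESeq2 (adjusted p = 0.0189).

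Without replicate 3 or 4 of 26 months, the change of Siglech at 26 against 3 months passed (-1.80 and -1.85, limma adjusted p = 0.00986 and 0.0174). It did not pass without replicate 2 or 5 of 26 months (-1.55 and -1.39, limma adjusted p = 0.172 and 0.287). It passed without replicate 5 of 3 months, the spleen with the highest young Csf1r, Olfml3 and Tmem119 (-1.81, limma adjusted p = 0.0176), an alternative chosen after the data were seen. Without replicate 1 of 26 months it was -1.04 (limma adjusted p = 0.593). Calls over all 16243 genes moved with these settings, from 60 to 896 in DESeq2, 1789 and 682 without replicates 3 and 4, 685 without replicate 5 of 3 months, and 16, 0 and 3 without replicates 1, 2 and 5 of 26 months. Of the markers of plasmacytoid dendritic cells, Ccr9 stood at 50.2 ± 17.1 (n = 7) at 3 and 28.6 ± 15.1 (n = 5) at 26 months (limma log2 change -0.90, SE 0.36; adjusted p = 0.184, and 0.0527 over all ages). Bst2 stood at 159 ± 31.8 and 167 ± 66.7 (log2 0.02, SE 0.29), Klk1 had a mean under 6 at each age, and Cox6a2 was listed at 0. The part of such cells in the level of Siglech was not tested.

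Csf1r in spleen ran from 284 over 492 to 1672 at 3 months and stood at 3067, 563, 265, 1159 and 2158 at 26 months (limma log2 change 0.90, SE 0.46; 95% interval -0.02 to 1.82; adjusted p = 0.321). The old samples lay on both sides of the young range. Cx3cr1 had a log2 change of -0.36 (SE 0.27, 95% interval -0.90 to 0.18) and Olfml3 one of 0.59 (SE 0.57, 95% interval -0.56 to 1.73).

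**Figure D5:**
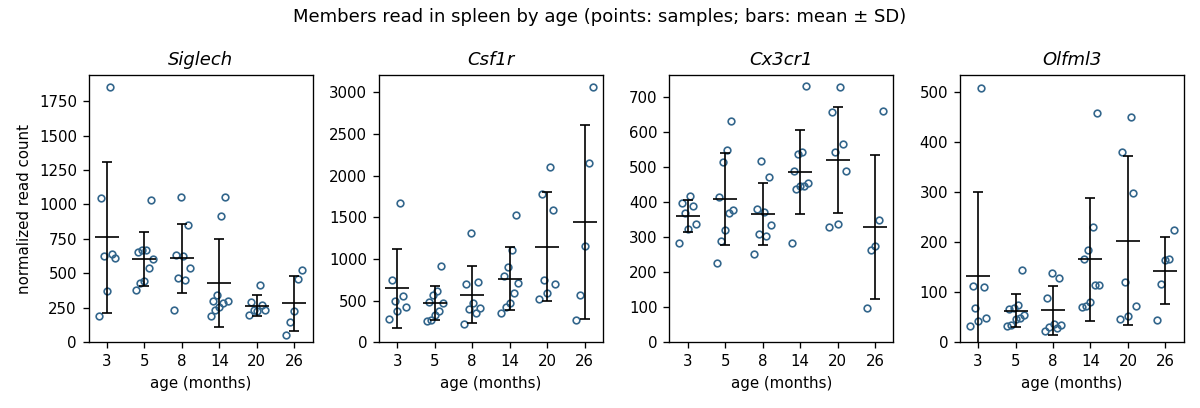
Normalized read count in spleen (vertical axes, from 0) of Siglech, Csf1r, Cx3cr1 and Olfml3 against age in months; points are samples, bars the mean ± SD. Siglech means go from 763 at 3 months to 282 at 26 months with wide spread, and Csf1r at 26 months spans from 265 to 3067.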

How the data were processed

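RNA libraries were made from total RNA of frozen tissue with an Illumina TruSeq kit, per the labels' protocols. Reads were aligned to GRCm38, and HISAT2 2.1.0, DESeq2, R 3.5.1, cutadapt, SAMtools and bcl2fastq 2.20 are listed per the submitters' processing notes. Which program counted reads, and with which annotation, is not given in the sources used here. The deposited values are a signal, reads scaled by the authors with 1 size factor for each library, as the values show: whole reads were recovered for 100% of values within 0.01 of a read.

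Genes with a value of at least 10 in 5 libraries were tested with limma 3.58.1 (mean-variance trend, R 4.3.3) on log2(value + 1), with 1 mean per age over all 6 ages, or 1 slope, and Benjamini-Hochberg adjustment over all tested genes of a contrast. An adjusted p under 0.05 is called. Tests are 2-sided. A fold change on the log2(value + 1) scale understates the change of low genes. edgeR 4.0.16 and DESeq2 1.42.0 on the recovered reads, other pseudocounts and filters, a pan-microglial covariate and left-out samples were tried as alternatives. For brain, the first principal component as a covariate was an alternative added to the plan later. To find libraries deposited more than once, the variance between libraries over genes with 5 to 50 summed reads was divided by that of read sampling: the 2 averaged pairs stood at 0.476 and 0.591, against a median of 1.77 over pairs of 1 age. Correlations used 100000 permutations within ages, 2-sided. The scripts were tested on simulated data.

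Named genes are the 9 members, the ligands Csf1, Il34, Cx3cl1, Tgfb1 and Nrros, up to 4 genes per list with the smallest p at 26 months, and the 10 genes most like the members. The members and lists were chosen with earlier results of these data known. Figures were drawn with matplotlib 3.10.9.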

Additional observations from a re-analysis of the deposited data

Results flagged for a closer look

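In 84 groups of 7 to 9 or of 5 samples, the highest or lowest sample was set against its group (Dixon's ratio at the 95% level). In 13 groups it stood apart. The level of the test, 1 in 20, would give 4.2, but only for independent values with a normal spread. The values are counts that were not logged, and the same samples recur over the members. The 13 can therefore not be set against chance. All 13 were high. In brain there was 1, Siglech at 5 months in replicate 2, at 147 with the nearest other sample at 109.8.

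The other 12 were in spleen. At 3 months replicate 5 stood apart in Csf1r (1672), Olfml3 (508) and Tmem119 (13.9). At 5 months replicate 6 stood apart in Olfml3 (144) and Slc2a5 (20.1), replicate 1 in Tmem119 (9.98) and replicate 8 in Siglech (1034). At 8 months replicate 5 stood apart in Csf1r (1309). At 14 months replicate 7 stood apart in Olfml3 (459) and replicate 3 in Slc2a5 (13.5). At 20 months replicate 7 stood apart in Siglech (417) and replicate 2 in Slc2a5 (99.0, the nearest other at 12.8). Replicates 5 of 3 months, 5 of 8 months and 7 of 14 months had the most reads of their age (9068038, 8875567 and 8732622). They also had the lowest share of reads in Malat1 (0.81%, 0.74% and 1.06%). Replicates 6 of 5 months and 2 of 20 months had the fewest reads of their age (3782260 and 3031246). What sets these samples apart was not tested.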

How the results depend on the processing

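In brain, 0 members were called in each of 181 recomputed counts, over every alternative and comparison run. Of 302 values of single members at 26 against 3 months or along the slope, 0 had an adjusted p under 0.05 and 21 had the other sign. With the pan-microglial covariate these were, at 26 against 3 months, Csf1r -0.51, Cx3cr1 -0.22, Olfml3 -0.17, Siglech -0.35 and Slc2a5 -0.14, and along the slope Csf1r -0.0117, Cx3cr1 -0.00992, Olfml3 -0.00494 and Slc2a5 -0.00374 per month. Fcrls at 26 against 3 months was 0.04 in DESeq2 and edgeR (0.0351 and 0.0425), and its slope 0.000231 in edgeR. The slope of Siglech was 0.000310 in DESeq2, 0.000526 in edgeR, 7.16e-05 with all 45 libraries counted separately and 0.00269 without the 6 libraries under 5000000 reads (chosen after seeing the data). With 1 sample left out, Tmem119 at 26 against 3 months ran from 0.07 to 0.35, Slc2a5 from 0.31 to 0.66, Olfml3 from 0.24 to 0.58, Sall1 from 0.03 to 0.18, Siglech from 0.03 to 0.15 and Cx3cr1 from 0.07 to 0.20. Csf1r at 26 against 3 months ran from -0.0217 to 0.31, Fcrls from -0.11 to 0.17, and, with 1 sample of 26 months left out, the slope of Fcrls from -0.00377 to 0.00320 and that of Siglech from -0.00173 to 0.00123. Slopes and tests over all ages were not rerun with single samples of other ages left out. The cause was not tested.

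In spleen at 26 against 3 months, 1 member was called in DESeq2, 1 without replicate 5 of 3 months, and 0 to 2 with 1 sample of 26 months left out. For any age the count was 1, with 3 in DESeq2, 3 in edgeR, 3 without replicate 5 of 3 months, and 1 to 4 with 1 sample of 26 months left out (Csf1r, Cx3cr1, Olfml3 and Siglech without replicate 3). Calls over all genes for any age moved too, from 2374 of 16243 to 4120 in DESeq2, 3199 in edgeR, 3011 without replicate 5 of 3 months and 3996 without replicate 3 of 26 months. Spleens of other ages were not left out in turn. Depth limits Slc2a5 most, at 3 to 57 reads per brain sample. No paired analysis was possible because the comparisons are between ages, which hold different animals. The titles pair brains with spleens by mouse, but the tissues were scaled separately and were not compared.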

Other observations

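Genes that lie wholly inside another gene and were listed at 0 were found beyond the microglial lists too. Of 195 list genes in the brain table, 12 were listed at 0 in all brain libraries, and 11 of them lie inside another gene. These include Gfap, the filament protein of astrocytes, Nefl, the light neurofilament, Vsir, a checkpoint receptor, and Ms4a1, the B cell antigen CD20. The exception is Adora3, an adenosine receptor, which overlaps another gene only in part. Counts of called genes in these lists rest on the other genes.

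Among glial lists, the slope with age called 2 of 8 oligodendrocyte genes in limma, Mobp (0.0169 log2 units per month, SE 0.00371, adjusted p = 0.00484) and Mag (0.0154, SE 0.00408, adjusted p = 0.0333), both higher. At 26 against 14 months limma called 1 of the 8, Cldn11, a tight junction protein of myelin (log2 change 0.42, SE 0.10, adjusted p = 0.0486), with 8 of 8 changes above 0 and a median of 0.28.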
